A study of Mus musculus with 87 samples.

Results

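Emx1, Emx2, Otx1, Otx2, En1, En2 and Gbx2 encode homeodomain transcription factors that mark regions of the embryonic brain, and they were followed through the RNA-seq libraries of mouse embryos at embryonic day 11.5 (E11.5). The genes were chosen by name and found by their Ensembl identifiers, and all 7 were present among the 43346 Ensembl genes of each table. The rule uses gene names and no measured value. Their levels are given by tissue, by line and by genotype in 64 libraries.

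The study asked what happens when a single boundary between topologically associating domains, the stretches of chromosome that contact themselves more than their neighbours, is deleted from the mouse genome. All embryos were of strain FVB and untreated. In each of 7 lines (B2 to B8) homozygous embryos lacked 1 boundary on both chromosomes and wild-type littermates carried it, and the deletions were placed so as to leave protein-coding genes intact. Embryos of line B8 gave forebrain and neural tube, and those of B4 gave midbrain and gut, each with 2 homozygous and 2 wild-type libraries per tissue. Faces came from B3, B5, B6 and B7, with 2 libraries per genotype in each line. Hearts came from B2 (4 per genotype), B3 and B5 (2 per genotype) and from homozygous embryos of B6 and B7 (2 each), and lungs came from B2 (6 per genotype). As controls for the hearts of B6 and B7, all 8 wild-type hearts from the other lines were taken, so line and genotype cannot be told apart there. Genotype is given as labelled, since RNA from these genes does not read the deletion, and nothing states which libraries of different tissues share an embryo. P-values measure the spread between these samples, which may in part be technical. Libraries are named by line, tissue, genotype and replicate, with the code of the library (A21 and the like) where one is singled out.

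The head end of the neural tube is divided early into forebrain, midbrain and hindbrain by transcription factors expressed in adjoining and overlapping fields. Otx2 is needed for forebrain and midbrain to form, and its caudal limit against Gbx2, which is expressed on the hindbrain side, sets the isthmic organizer, a signalling centre at the midbrain-hindbrain border. En1 and En2 are expressed around that border with Pax5, Fgf8, Fgf17, Wnt1 and Cnpy1. Emx1 and Emx2 are expressed in the dorsal telencephalon, the future cerebral cortex, where they act with Otx1. Several of the genes also work elsewhere: En1 in the V1 interneurons of the spinal cord, in the ventral limb and in dermis, Emx2 in the urogenital system, Otx1 and Otx2 in eye and nose, and Gbx2 in several other neural and neural crest derivatives.

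All 7 proteins bind DNA through a homeodomain. The stretch printed here covers its recognition helix, the part that reads the DNA, and is shown because 1 codon in it sets the Otx genes apart from the rest. Each line gives 30 coding bases, 5′ to 3′ on the gene's own strand, in the last exon of the gene, from GENCODE M21 transcripts placed on GRCm38. Capitals mark the codon after the tryptophan and phenylalanine pair, which is AAG (lysine) in Otx1 and Otx2 and CAG or CAA (glutamine) in the other 5 genes.

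Emx1, chr6:85203918-85203947, plus strand, exon 3 of 3: tggttcCAGaatcggaggacaaaatacaaa
Emx2, chr19:59463889-59463918, plus strand, exon 3 of 3: tggtttCAGaaccggagaacgaaattcaaa
Otx1, chr11:21997026-21997055, minus strand, exon 5 of 5: tggttcAAGaaccgccgcgccaagtgccgc
Otx2, chr14:48659294-48659323, minus strand, exon 6 of 6: tggtttAAGaatcgaagagctaagtgccgc
En1, chr1:120607058-120607087, plus strand, exon 2 of 2: tggttcCAAaacaagcgtgccaagatcaag
En2, chr5:28170304-28170333, plus strand, exon 2 of 2: tggttcCAGaacaagcgggccaaaatcaag
Gbx2, chr1:89928758-89928787, minus strand, exon 2 of 2: tggttcCAGaaccgccgggccaagtggaaa

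Over the whole homeobox of 180 bases, Emx1 and Emx2 shared 142 bases (78.9%), Otx1 and Otx2 shared 144 (80.0%), and En1 and En2 shared 150 (83.3%). Gbx2 and its relative Gbx1 shared 152 bases (84.4%). Least alike among the compared genes were Otx2 and En1, at 42.8% identity. The longest run of identical bases between the transcripts of a pair was 14 bases for the Emx genes, 18 for the Otx genes, 17 for the En genes and 38 for Gbx1 and Gbx2. All of these runs are shorter than the reads described in the methods. Otx2, Gbx2 and Emx2 each overlap a transcript of the opposite strand (Otx2os1, D130058E05Rik and Emx2os). Use of strand in the counting is not given in the sources used here, so reads of these genes and of their antisense partners cannot be told apart where they overlap.

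Total expected counts ran from 8391553 to 31793441 per library. Values are given as CPM, counts scaled to library size with 1 set of TMM factors over the 64 libraries, and as TPM, which also corrects for length, wherever levels of different genes are compared. In bulk tissue, fewer cells of a type and less RNA per cell cannot be told apart. Neural tube and forebrain carried markers of their own. The sum of 9 Hox genes of the spinal cord was 375 to 435 CPM in neural tube and at most 0.119 CPM in forebrain. Tbr1, a gene of early cortical neurons, was at 49.2 to 116 CPM in forebrain. Other lists were not confined to their tissue. A diencephalon list summed to 360 to 479 CPM in midbrain and 199 to 229 CPM in forebrain, and a heart list to 274 to 332 CPM in neural tube (9267 to 32708 CPM in heart).

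Some libraries stood apart in the tissues they held. The library labelled B5 heart homozygous replicate 1 (A21) had a summed heart marker level of 9267 CPM against 14058 to 21652 CPM in the other B5 hearts, and a summed facial mesenchyme level of 262 CPM against 9.24 to 22.4 CPM. Its Alx1, a facial mesenchyme gene, was at 59.9 CPM, within the range of the 16 faces (59.7 to 99.6 CPM), and it held both Xist, at 144 CPM, and the Y-linked Ddx3y, at 22.3 CPM. These heart and face lists were drawn up after the values had been seen. The library labelled B4 midbrain homozygous replicate 2 (A39) had a summed telencephalon list of 663 CPM against 172 to 191 CPM in the other midbrains, and its summed midbrain list was 241 CPM against 395 to 474 CPM. Among the hearts, B5 wild-type replicate 2 (A24) and B3 wild-type replicate 2 (A16) had the 2 highest sums of the spinal Hox list (69.1 and 42 CPM, heart median 3.07 CPM), of a gut list (94.2 and 87.3 CPM, median 5.25 CPM) and of a lung list (262 and 223 CPM, median 114 CPM), the gut and lung lists also drawn up after the values had been seen. Where a called value, or one described as a difference, moves with A21 or A39, the value without that library is given.

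Otx1 and Otx2 were high in forebrain and midbrain, lower in face, and near 0 in neural tube, gut, lung and every heart but A21. Otx2, the gene most often used to mark forebrain and midbrain together, was highest in midbrain, at 129 and 109 CPM in the homozygous and 121 and 123 CPM in the wild-type libraries. In forebrain it was at 46.4 and 46.2 CPM in libraries labelled homozygous and 44.5 and 42.8 CPM in those labelled wild-type. The 2 tissues did not overlap, and the mean in midbrain (121 ± 8.69 CPM, SD, n = 4) was 2.69 times that in forebrain (45.0 ± 1.66 CPM, SD, n = 4). The 16 faces followed at 4.40 to 14.4 CPM with a median of 10.8 CPM, below every forebrain library. Neural tube was at 0.244 to 0.738 CPM and gut at a mean of 0.0884 CPM.

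Otx1 did not separate forebrain from midbrain. It was at 69.9, 56.1, 47.8 and 80.4 CPM in forebrain and at 53.3, 54.5, 63.7 and 43.4 CPM in midbrain, so the ranges overlapped, and the ratio of the means was 1.18. All 16 faces lay below both, at 9.36 to 16.7 CPM with a median of 11.5 CPM. Neural tube and gut means were 0.0951 and 0.148 CPM. Crx, the photoreceptor member of the Otx family, was at 0.872 to 2.11 CPM in forebrain and 2.44 to 5.65 CPM in midbrain.

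**Figure D1:**
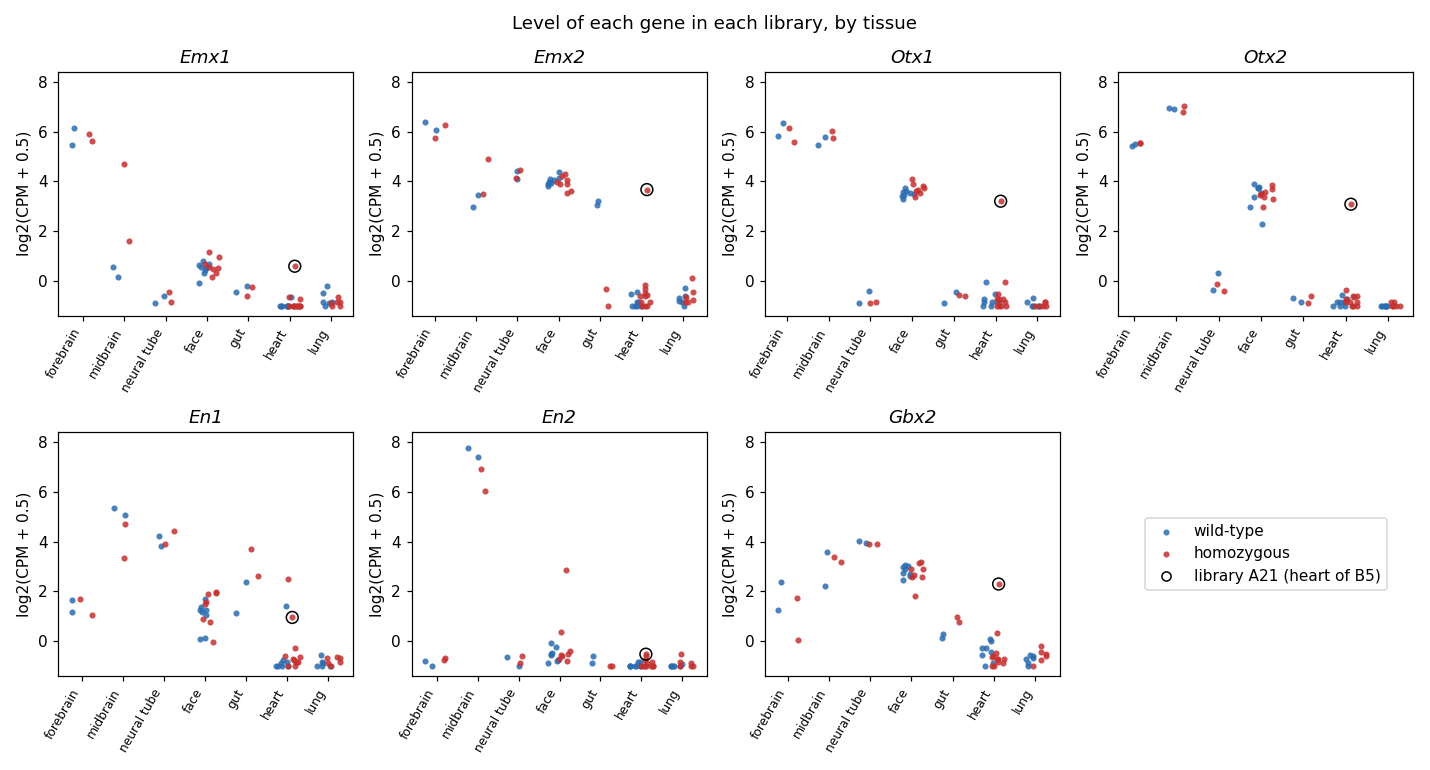
Level of each of the 7 genes in every library as log2(CPM + 0.5), with tissues along the horizontal axis, 1 panel per gene, blue points wild-type and red points homozygous, and A21 circled. Otx1 and Otx2 were high in forebrain, midbrain and face, En2 in midbrain, and the Emx genes were highest in forebrain; A21, at 12.2 CPM for Emx2 and 7.95 CPM for Otx2, lay among or next to the faces.

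Emx1 was concentrated in forebrain, where it was at 48.5, 43.4, 59.1 and 69.9 CPM (mean 55.2 ± 11.8 CPM, SD, n = 4). In midbrain 3 libraries were at 2.50, 0.987 and 0.611 CPM, and A39 was at 25.3 CPM. No midbrain library reached the lowest forebrain. Faces ran from 0.451 to 1.76 CPM with a median of 0.954 CPM, and the neural tube libraries were at 0.0455 to 0.241 CPM.

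Emx2 was broader. It was at 76.3, 66.1, 53.6 and 82.3 CPM in forebrain, above every library of every other tissue. Neural tube (17.1, 16.5, 21.2 and 20.8 CPM) and the 16 faces (11 to 20 CPM, median 15.2 CPM) came next and overlapped, with a ratio of the means of 1.22. In midbrain it was at 10.7, 10.4 and 7.25 CPM in 3 libraries and at 29.4 CPM in A39. The first 3 lay below every face and A39 above every face. The neural tube libraries also held mesodermal genes of the urogenital ridge and coelomic lining: Wt1, a regulator of kidney and gonad, was at 26.9 to 36.9 CPM, Nr5a1, a regulator of adrenal and gonad, at 3.91 to 7.40 CPM, and Upk3b, a mesothelial gene, at 9.25 to 11.7 CPM. Their part in the neural tube level of Emx2 was not tested. Emx2os, the antisense transcript of Emx2, was at 1.23 to 2.05 CPM there.

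En2 separated midbrain from all other tissues more sharply than any other gene of the group. It was at 121 and 65.3 CPM in the homozygous and 169 and 215 CPM in the wild-type midbrains, a mean of 143 ± 64.2 CPM (SD, n = 4). The mean in face, the next tissue, was 227 times lower, or 634 times lower without the face library A17 (0.225 CPM over the other 15), and that in forebrain was 0.072 CPM. Among the faces the range was 0.0429 to 6.69 CPM with a median of 0.187 CPM, and 1 library, B5 face homozygous replicate 1 (A17), carried the highest value on 176 counts. In A17 the isthmic genes Wnt1 (1.03 CPM), Pax5 (0.951 CPM), Pax8 (1.14 CPM) and Cnpy1 (1.07 CPM) and the midbrain gene Barhl1 (3.35 CPM) were also at their highest of the 16 faces, whose medians were 0.155, 0.101, 0.396, 0.292 and 0.817 CPM. The whole isthmic and midbrain lists did not set A17 apart from the other faces. The isthmic list summed to 144 CPM in A17 (faces 109 to 164 CPM) and the midbrain list to 116 CPM (faces 85.5 to 118 CPM). A17 did have the highest face sum of a hindbrain list, at 89 CPM (face median 59.5 CPM). It was also the highest face for a list of neuronal genes, at 868 CPM (face median 630 CPM). The part of midbrain or hindbrain tissue in the En2 value of A17 was not tested.

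En1 was shared between midbrain and neural tube. It was at 25.4, 32.8, 9.53 (A39) and 40.5 CPM in midbrain and 20.8, 13.6, 14.6 and 18 CPM in neural tube. A39 lay below every neural tube library and the other 3 midbrains above every one, so the overlap of the tissues rests on A39. Gut came next, at 5.64, 1.68, 12.4 and 4.75 CPM, below every neural tube library. Forebrain (1.56 to 2.69 CPM) and face (0.469 to 3.38 CPM) overlapped each other and gut. Genes of the V1 and other ventral spinal interneurons were present in neural tube. Lhx1 was at 18.5 to 26.5 CPM, Pax2 at 9.29 to 15.5 CPM and Foxd3, which also marks neural crest, at 11.8 to 14.1 CPM. Lhx1 and Pax2 are also on a list of urogenital genes, which summed to 107 to 142 CPM in neural tube. The whole list of 5 such genes was not particular to neural tube. It summed to 75.7 to 112 CPM there, 86.2 to 101 CPM in forebrain and 138 to 174 CPM in midbrain. The part of these cells in the neural tube level of En1 was not tested.

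Gbx2 was highest in neural tube, at 14.4, 14.7, 14.6 and 15.8 CPM (mean 14.9 ± 0.65 CPM, SD, n = 4), a narrow spread. Midbrain was next at 9.87, 11.5, 8.65 and 4.16 CPM, below every neural tube library, and overlapped the faces (2.97 to 8.43 CPM, median 6.50 CPM). Forebrain spread from 0.539 to 4.64 CPM. Gbx1, the paralog, was at 2.49 to 3.42 CPM in neural tube, and D130058E05Rik, which overlaps Gbx2 on the other strand, was at 3.19 to 4.83 CPM.

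Hearts and lungs held little of any of the 7 genes. Over the 19 hearts other than A21 the median of each gene was between 0 and 0.144 CPM. The highest heart values were 5.06 CPM for En1 and at most 0.749 CPM for the other 6 genes. Over the 12 lungs no gene was above 0.566 CPM or 12 counts. A21, by contrast, was at 12.2 CPM for Emx2, 8.69 CPM for Otx1, 7.95 CPM for Otx2, 4.40 CPM for Gbx2, 1.43 CPM for En1 and 1.00 CPM for Emx1, each within the range of the 16 faces except Otx1, which lay below their lowest (9.36 CPM).

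Within each pair, the paralog that dominated depended on the tissue. The share of a paralog in the summed TPM of its pair was computed in libraries with at least 20 counts of the pair. Emx1 made up 43.6 to 57.1% of Emx TPM in forebrain, 4.2 to 19.5% in face and 0.251 to 1.88% in neural tube. In midbrain it was 9.95 to 54%, and the highest of these was A39. Otx1 made up 41.9 to 56.5% of Otx TPM in forebrain and 18.6 to 29.8% in midbrain, which did not overlap, and 32.7 to 59.9% in face.

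The engrailed pair showed the sharpest switch. En1 made up 16.8 to 22.5% of En TPM in midbrain and 96 to 100% in forebrain, 99.2 to 100% in neural tube and 97.7 to 100% in gut. In the 14 faces with enough counts the median was 93.8% and the lowest 39.4%. On the TPM scale En2 was thus the more abundant in midbrain, at 67.2, 95.4, 35 and 123 TPM against 19.5, 25.7, 7.08 and 32 TPM for En1. The En1 share of A39 was the lowest of the 4 midbrains, at 16.8%. In forebrain the Emx paralogs were close, with Emx1 at 66.6, 62.0, 71.9 and 98.2 TPM and Emx2 at 86.1, 76.5, 53.9 and 115 TPM.

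**Figure D2:**
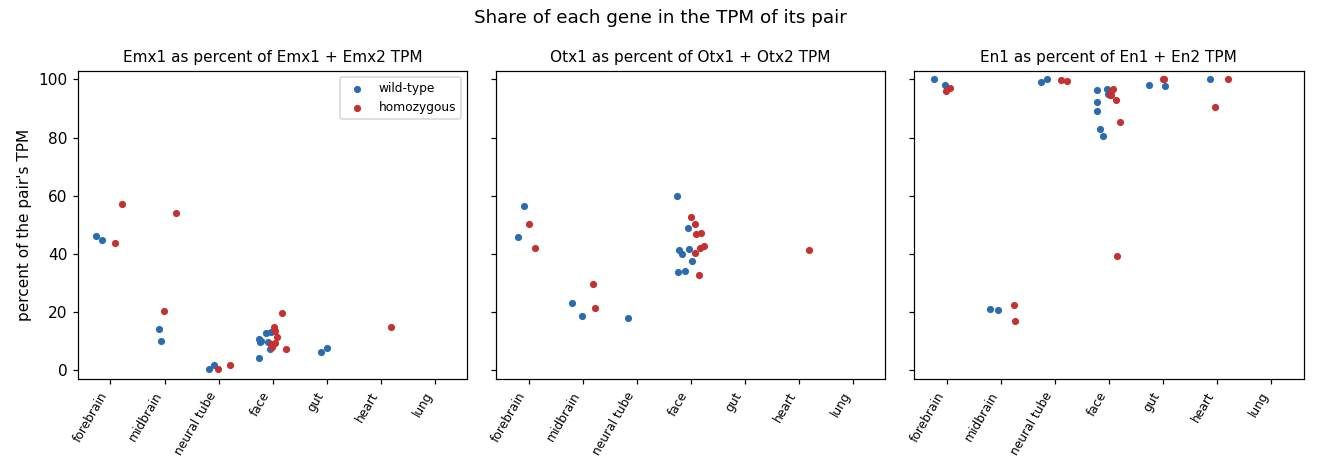
Share of the first paralog in the summed TPM of its pair, in percent, for every library with at least 20 counts of the pair, by tissue. En1 lay between 16.8 and 22.5% in midbrain and at 96% or more in forebrain, neural tube and gut, and Emx1 at 43.6 to 57.1% in forebrain and at most 1.88% in neural tube.

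Genes with the most similar pattern over the 64 libraries were listed for each gene, by Pearson's r of log2(CPM + 0.5), among genes with a mean of at least 1 CPM in the tissue where the gene was highest (13415 to 13875 candidates). These values describe a pattern set mainly by tissue, since libraries of a tissue are not independent points. Emx1 was most like Eomes (r = 0.965), a gene of cortical intermediate progenitors, and next Scn11a (0.942), Dmrta2os (0.936) and 2610035F20Rik (0.929). Among the genes most like Emx2 were Pou3f3 (0.95), Islr2 (0.949) and Pax6 (0.948). Otx1 was most like Nr2e1 (0.987), Olig1 (0.975), Dmrta2 (0.974) and Fezf2 (0.954), and Otx2 was most like Nr2e1 (0.971), Gm10421 (0.969), Olig1 (0.960) and Gm20421 (0.958). For En2 the nearest were Tfap2d (0.964), Pax5 (0.957), Cnpy1 (0.95) and Hes3 (0.924), of which Pax5 and Cnpy1 are on the isthmic list used here. For En1 the nearest were less close, Gm16551 (0.894), Onecut1 (0.885), Onecut3 (0.874) and St8sia3 (0.865). Gbx2 was most like Prdm12 (0.949), Pax3 (0.946), Xkr7 (0.945) and Pou4f1 (0.945). Among the group itself Otx1 and Otx2 were the closest pair (0.984), with 0.723 for Emx1 and Emx2 and 0.594 for En1 and En2.

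The same tissue differences were then tested with edgeR's quasi-likelihood test, genotypes together and genotype as a covariate, with p-values adjusted over all tested genes and a gene called at an adjusted p under 0.05. Many genes differ between tissues, so each count is set beside the share of all tested genes that was called. A gene near 0 in 1 tissue entered a test only through the other tissue, which largely fixed its call and direction. In forebrain against neural tube these were Emx1, Otx1 and Otx2 (1 to 6, 1 to 5 and 5 to 15 neural tube counts) and the spinal Hox genes. En2 in every contrast, the Otx genes against gut or neural tube, and genes near 0 in heart have the same limit. Such calls restate the levels above and add no support. Forebrain and neural tube of B8 come from the same line. All 6 tested genes were called, against 35.9% of all tested genes, 4 of them higher in forebrain (16.7% of all) and 2 lower (19.3% of all). Otx1 was higher in forebrain by 9.35 on the log2 scale (95% interval 8.61 to 10.08, adjusted p = 3.87e-08), Emx1 by 8.71 (8.02 to 9.40, adjusted p = 3.87e-08), Otx2 by 6.74 (6.27 to 7.21, adjusted p = 2.1e-08) and Emx2 by 1.87 (1.53 to 2.20, adjusted p = 8.38e-06). En1 and Gbx2 were lower, with log2 fold changes of -2.95 (-3.45 to -2.45, adjusted p = 6.1e-06) and -2.66 (-3.57 to -1.75, adjusted p = 6.39e-04). Beside them 12 of 12 tested telencephalic genes were higher and 9 of 9 spinal Hox genes lower. All 9 tested urogenital genes were lower in forebrain, with a median of -4.42.

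Midbrain against gut, both of B4, gave 6 of 7 genes higher in midbrain, against 31.9% of all tested genes (34.9% were lower, 66.8% in either direction). The values were 11.24 for En2 (95% interval 10.34 to 12.13, adjusted p = 1.6e-08), 10.33 for Otx2 (9.94 to 10.72, adjusted p = 7.34e-10), 8.49 for Otx1 (7.96 to 9.01, adjusted p = 4.13e-09), 3.97 for Emx1 (1.55 to 6.40, adjusted p = 0.00866), 3.14 for Gbx2 (2.36 to 3.92, adjusted p = 3.02e-05) and 2.16 for En1 (0.83 to 3.49, adjusted p = 0.00907). Emx2, at 2.32 (-0.21 to 4.84, adjusted p = 0.0947), did not pass, and its gut level differed between the genotypes (0 and 0.305 CPM against 7.79 and 8.63 CPM). In wild-type libraries alone Emx1 was at 1.34 (adjusted p = 0.0999), and it was not called without gut homozygous replicate 1 (3.37, adjusted p = 0.0568) or 2 (3.21, adjusted p = 0.0503). Without A39 Emx1 was at 2.22 (adjusted p = 0.00457) and Emx2 at 1.74 (adjusted p = 0.118). Emx2 was called without midbrain wild-type replicate 2 (3.55, adjusted p = 0.0367). Of the lists, 9 of 9 midbrain genes and 11 of 12 isthmic genes were higher in midbrain.

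Forebrain of B8 against midbrain of B4 compares tissues of different lines, so tissue and line cannot be told apart. Of 7 genes, 2 were higher in forebrain (9.88% of all tested genes) and 4 lower (12.6% of all, 22.5% in either direction). Emx1 was higher by 3.50 (95% interval 1.47 to 5.53, adjusted p = 0.0228) and Emx2 by 2.36 (1.52 to 3.20, adjusted p = 0.00289), while En2 was lower, at -10.89 (-11.80 to -9.97, adjusted p = 3.25e-06), as were En1 at -3.56 (-4.40 to -2.72, adjusted p = 3.55e-04), Gbx2 at -1.84 (-3.02 to -0.66, adjusted p = 0.0339) and Otx2 at -1.43 (-1.59 to -1.26, adjusted p = 1.53e-05). Otx1 did not pass, at 0.24 (-0.15 to 0.63, adjusted p = 0.35). In wild-type libraries alone Emx1 was 6.15 higher on the log2 ratio of the means, and Gbx2 did not pass (-1.25, adjusted p = 0.166). Without A39 Emx1 was 5.35 higher in forebrain (adjusted p = 4.62e-05) and Emx2 2.89 higher (adjusted p = 3.72e-05). The call of Emx1 was lost without midbrain homozygous replicate 1 or either wild-type midbrain, at 2.90 to 3.25, and that of Gbx2 without forebrain wild-type replicate 2, midbrain wild-type replicate 1 or either homozygous midbrain, at -1.66 to -1.78. Of the lists, 8 of 12 telencephalic genes were higher in forebrain and none lower, and 9 of 9 midbrain genes were lower.

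Midbrain of B4 against neural tube of B8 has the same limit. Of 7 genes, 4 were higher in midbrain (20.2% of all tested genes) and 1 lower (23.8% of all, 44% in either direction). En2 was at 10.46 (adjusted p = 2.02e-07), Otx1 at 9.08 (adjusted p = 6.07e-08), Otx2 at 8.14 (adjusted p = 1.71e-08) and Emx1 at 5.63 (95% interval 3.20 to 8.06, adjusted p = 0.00246), and Gbx2 was lower at -0.85 (-1.42 to -0.27, adjusted p = 0.0236). Emx2 (-0.52, -1.30 to 0.25, adjusted p = 0.244) and En1 (0.57, -0.17 to 1.31, adjusted p = 0.191) did not pass with A39 in the fit. Without A39 Emx1 was at 3.54 (adjusted p = 6.34e-04), and both of those genes passed, Emx2 being lower in midbrain at -1.02 (adjusted p = 7.98e-04) and En1 higher at 0.91 (adjusted p = 0.00358). The call of Gbx2 was lost in wild-type libraries alone (-1.01, adjusted p = 0.0772) and without neural tube wild-type replicate 1 (-0.83, adjusted p = 0.0511) or 2 (-0.79, adjusted p = 0.0695).

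Face against heart was compared within B3 and B5. All 6 tested genes were higher in face, against 37.5% of all tested genes (35% were lower, 72.5% in either direction), with log2 fold changes of 4.53 for Otx2 (adjusted p = 0.00148), 4.40 for Emx2 (adjusted p = 5.05e-04), 4.32 for Otx1 (adjusted p = 4.83e-04), 3.23 for Gbx2 (adjusted p = 8.03e-04), 2.67 for Emx1 (adjusted p = 0.00573) and 2.21 for En1 (adjusted p = 0.00875). A21 is 1 of the hearts in that fit. Without it the values were 8.44, 6.59, 6.43, 4.77, 5.19 and 2.55, and all 6 genes were still called. In wild-type libraries alone En1 was at 1.80 (adjusted p = 0.121). The faces also held the olfactory and eye lists, of which 6 of 6 and 7 of 8 tested genes were higher than in heart, and all 12 tested telencephalic genes.

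Forebrain of B8 was set against the faces of the other lines for the same genes, so here too tissue and line cannot be told apart. Emx1 was higher in forebrain by 5.80 (95% interval 5.48 to 6.12, adjusted p = 1.26e-17), Otx1 by 2.42 (adjusted p = 4.16e-14), Emx2 by 2.16 (adjusted p = 9.72e-14) and Otx2 by 2.07 (adjusted p = 6.58e-10), so 4 of 6 genes were higher, against 29.2% of all tested genes (57.5% in either direction). Gbx2 was lower at -1.42 (-2.05 to -0.78, adjusted p = 4.7e-04; 28.3% of all tested genes were lower), and En1 did not pass at 0.19 (-0.57 to 0.96, adjusted p = 0.676). Lung against heart, in B2, tested none of the 7 genes because their counts were too low.

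By genotype no gene of the group was called. Of 98 combinations of gene and comparison, 44 had counts enough to be tested, in 9 comparisons, and edgeR called 0, with a smallest adjusted p of 0.111. DESeq2 on the same counts also called 0 of the 44, against 0.631% of all its gene tests. RLE factors gave 0 as well (0.00756% of all gene tests), while 3 of 98 were called with no filter on low counts (0.866% of all) and 6 of 98 in a joint fit of the 64 libraries (2.73% of all), which shares the estimate of spread across tissues. Before adjustment 10 tests (22.7%) had a p under 0.05, against 7.41% of all gene tests in the 14 comparisons. After adjustment 0.00993% of all those gene tests were called. In the 9 comparisons that tested a gene of the group, the share of all genes before adjustment ran from 0.748% (B5 heart) to 10% (B8 neural tube).

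**Figure D3:**
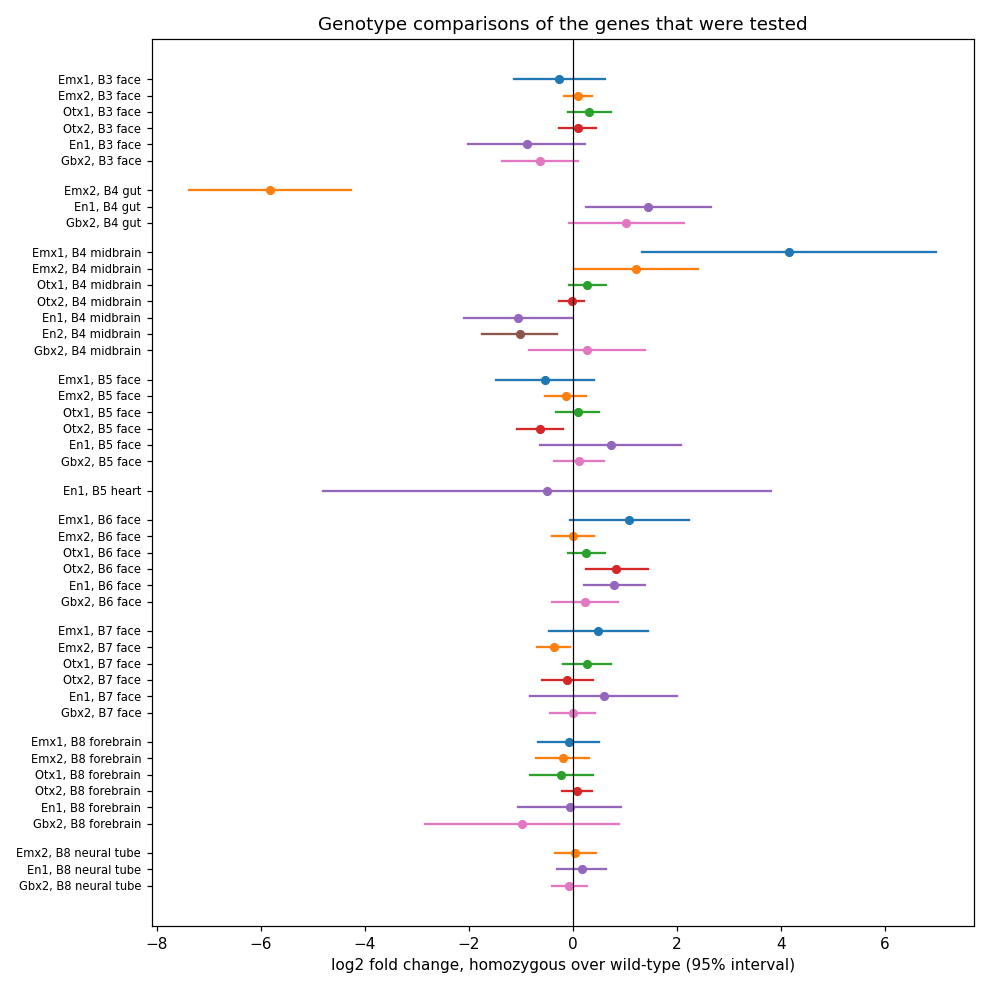
Genotype effect, as the log2 ratio of homozygous to wild-type libraries with its 95% interval, for the 44 tests, grouped by line and tissue. Emx2 in B4 gut lay furthest from 0, at -5.82, followed by Emx1 in B4 midbrain at 4.16, whose interval ran from 1.33 to 6.99.

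The 4 midbrains of B4 fell in 1 order for the engrailed and most isthmic genes. En2 was at 65.3 CPM in A39, 121 CPM in homozygous replicate 1 (A37), 169 CPM in wild-type replicate 1 (A38) and 215 CPM in wild-type replicate 2 (A40). En1 followed the same order at 9.53, 25.4, 32.8 and 40.5 CPM, as did the isthmic genes Pax5 at 3.18, 6.55, 11.8 and 15.4 CPM and Cnpy1, an FGF signalling regulator, at 12, 22.8, 34.9 and 49.6 CPM. Both homozygous libraries were below both wild-type libraries for these 4 genes. The order held for 11 of the 12 isthmic genes and 3 of the 9 midbrain genes, and A39 was the lowest of the 4 for all 21. The order was read from En2 and En1 in these same libraries, and the share of all genes that follow it is not given. These counts are therefore a description and no test of genotype. The order did not hold for Hes3 (1.98, 6, 5.97 and 6.91 CPM) or Tfap2d (5.89, 10.5, 12.7 and 10.5 CPM), which were on neither list. Nor did it hold for Gbx2 (8.65, 9.87, 11.5 and 4.16 CPM). Otx2 was at 109 to 129 CPM in the same libraries with no such order.

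The telencephalic genes stood apart in A39 alone. Emx1 was at 25.3 CPM there, on 550 counts, and at 2.50 CPM in A37, 0.987 CPM in A38 and 0.611 CPM in A40, on 55, 21 and 16 counts. Tbr1 was at 52.3 CPM against 0.094 to 0.364 CPM, and Eomes at 50.3 CPM against 0.267 to 0.955 CPM. The part of telencephalic tissue in the values of A39 was not tested. Sex-linked genes split the libraries in another way, with Xist at 153 CPM in A37 and Ddx3y at 34.4 to 41.4 CPM in the other 3.

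In the test of the B4 midbrains, 4 of 7 genes had an unadjusted p under 0.05, against 7.25% of all tested genes, and none was called (0.00677% of all were). Emx1 was at 4.16 (SE 1.14, 95% interval 1.33 to 6.99, adjusted p = 0.668), Emx2 at 1.22 (0.02 to 2.41, adjusted p = 0.668), En1 at -1.05 (-2.10 to -0.01, adjusted p = 0.668) and En2 at -1.02 (SE 0.29, -1.74 to -0.31, adjusted p = 0.668). Otx1 (0.28, -0.08 to 0.64), Otx2 (-0.02, -0.26 to 0.22) and Gbx2 (0.27, -0.84 to 1.39) had intervals that included 0. Without A39 the values were 1.67 for Emx1, 0.30 for Emx2, -0.52 for En1 and -0.65 for En2, and none was called. With A39 as the only homozygous library the values of these 4 genes were 5.04, 1.78, -1.91 and -1.52, in the same order. Of the lists, 6 of 12 isthmic genes (median -0.80) and 5 of 11 telencephalic genes (median 2.58) had an unadjusted p under 0.05, and none was called.

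**Figure D4:**
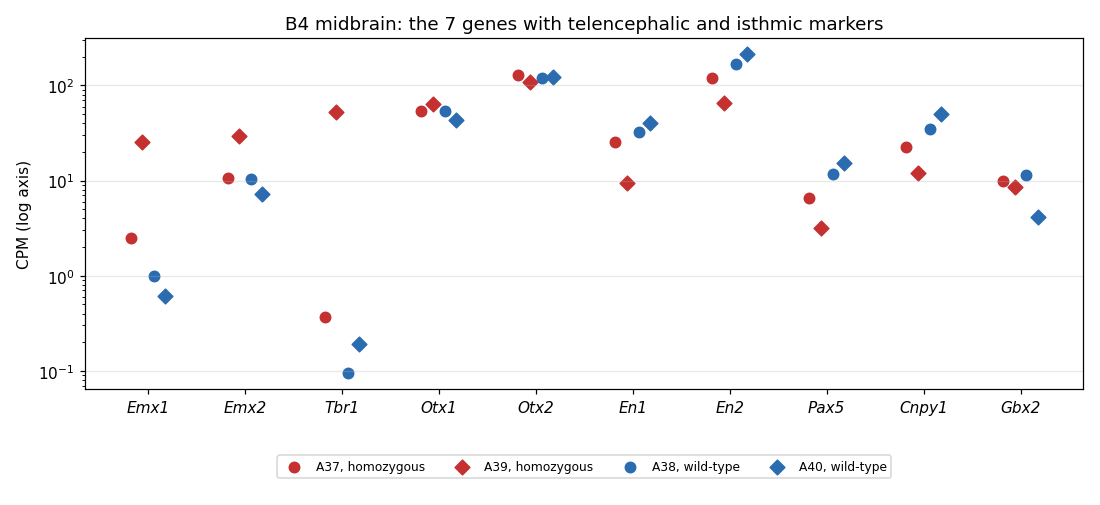
CPM on a log axis in the 4 B4 midbrain libraries for the 7 genes and for Tbr1, Pax5 and Cnpy1; A37 and A39 are homozygous and A38 and A40 wild-type. A39 was the highest for Emx1 and Tbr1 and the lowest for En1, En2, Pax5 and Cnpy1, while Otx2 lay between 109 and 129 CPM in all 4.

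In the guts of B4 the homozygous and wild-type libraries did not overlap for Emx2. It had 0 and 6 counts in the homozygous libraries (0 and 0.305 CPM) and 167 and 231 counts in the wild-type ones (7.79 and 8.63 CPM). The log2 fold change was -5.82 (SE 0.67, 95% interval -7.38 to -4.27), and with an adjusted p of 0.111 it was not called, in a comparison in which 0% of all tested genes were called and 6.9% had an unadjusted p under 0.05. Fitted jointly with all 64 libraries it was -5.81 (adjusted p = 6.82e-04). With 1 of the 4 guts left out it ran from -10.62 to -4.73, the first of these resting on the homozygous library with 0 counts.

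Genes of the kidney and gonad primordia followed the same split. Nr5a1 was at 0 and 0.102 CPM in the homozygous guts and at 10.9 and 4.00 CPM in the wild-type ones. Foxd1, a gene of kidney stroma and other mesenchyme, was at 0.294 and 0.712 CPM against 29.2 and 7.89 CPM, and Lhx1, an early nephric gene, at 0 and 0.0509 CPM against 1.12 and 0.785 CPM. Wt1, which mesothelium also expresses, was at 38.6 and 37.0 CPM against 64.2 and 52.6 CPM, and the mesothelial Upk3b at 55.5 and 57.2 CPM against 62.7 and 40.9 CPM. The whole urogenital list summed to 122 and 124 CPM against 189 and 146 CPM, and of its 9 tested genes 7 had an unadjusted p under 0.05 with a median log2 fold change of -1.45, and none was called. The part of kidney or gonad primordium carried with the wild-type guts was not tested. Xist was at 153 CPM in homozygous replicate 1 (A41), and Ddx3y was at 55.1 to 68.8 CPM in the other 3 guts.

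En1 went the other way in the same guts, at 5.64 and 12.4 CPM in the homozygous libraries and 1.68 and 4.75 CPM in the wild-type ones, on 36 to 243 counts. Its log2 fold change was 1.45 (95% interval 0.26 to 2.65, adjusted p = 0.612). With 1 library left out it ran from 0.79 to 2.41, the highest being without wild-type replicate 2. Gbx2 was at 1.43 and 1.22 CPM against 0.700 and 0.598 CPM, with a log2 fold change of 1.03 (-0.08 to 2.14, adjusted p = 0.777). No other gene of the group was tested in gut, so 2 of 3 had an unadjusted p under 0.05.

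Forebrain of B8 held no unadjusted p under 0.05 among 6 tested genes, against 5.57% of all tested genes. It is not settled that the genotype labels of these 4 libraries are the right way round, and if they are reversed the sign of every fold change between them turns. Otx2 gave the narrowest interval, a log2 fold change of 0.08 (-0.21 to 0.37), and those of Emx1 (-0.08, -0.67 to 0.51), Emx2 (-0.19, -0.70 to 0.32), Otx1 (-0.22, -0.82 to 0.39) and En1 (-0.06, -1.05 to 0.93) also included 0. Gbx2 varied most, at 0.539 and 2.78 CPM in the libraries labelled homozygous and 4.64 and 1.89 CPM in those labelled wild-type, with a log2 fold change of -0.98 (-2.84 to 0.88, adjusted p = 0.862). Genes of the ventral forebrain also varied between the 4 libraries: in the same order of libraries, Dlx1 was at 30.5, 86.5, 97.9 and 54.2 CPM, Dlx2 at 35.3, 83.6, 88.8 and 53.9 CPM and Gbx1 at 0.539, 3.20, 4.20 and 0.491 CPM. Nkx2-1, a gene of the ventral telencephalon and hypothalamus, was at 14.3, 61.1, 52.2 and 1.4 CPM. How much ventral tissue each forebrain held, and its part in the Gbx2 values, was not tested.

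**Figure D5:**
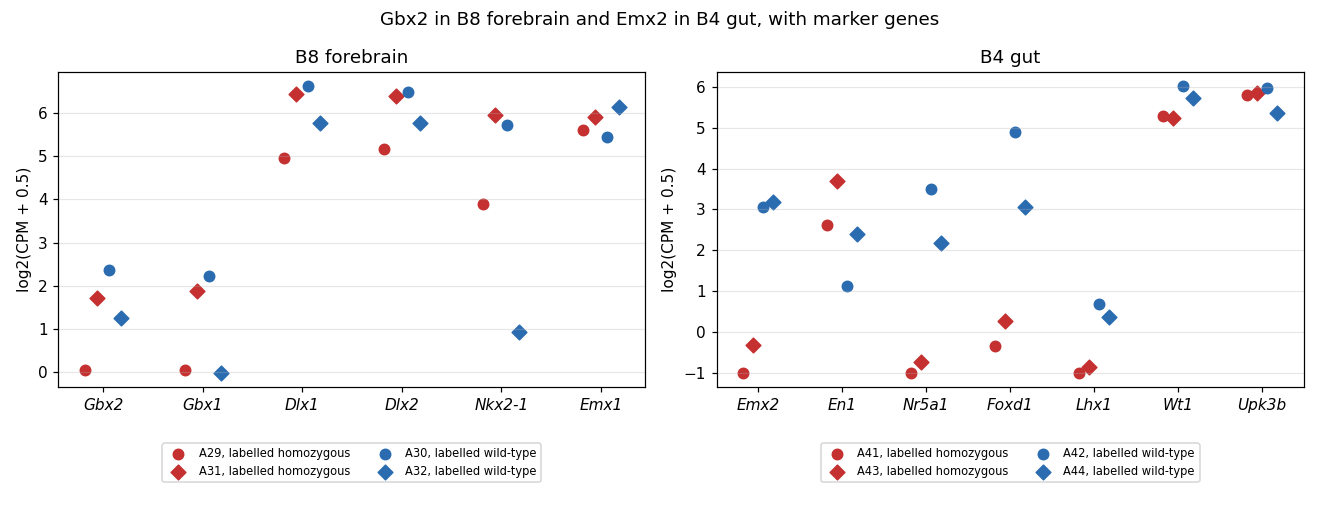
Level as log2(CPM + 0.5) in single libraries, on the left for Gbx2, Gbx1, Dlx1, Dlx2, Nkx2-1 and Emx1 in the 4 B8 forebrains and on the right for Emx2, En1, Nr5a1, Foxd1, Lhx1, Wt1 and Upk3b in the 4 B4 guts. In gut, Emx2, Nr5a1, Foxd1 and Lhx1 separated the genotypes while Upk3b did not; in forebrain the lowest Gbx2, 0.539 CPM, was in the library with the lowest Dlx1, 30.5 CPM.

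Neural tube of B8 held 3 tested genes, all with intervals that included 0: Emx2 at 0.04 (-0.35 to 0.44), En1 at 0.17 (-0.30 to 0.64) and Gbx2 at -0.07 (-0.41 to 0.27). None had an unadjusted p under 0.05, against 10% of all tested genes, and 0.0132% of all were called.

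The 4 lines with faces gave 24 tests and 0 calls. In B6, Otx2 was at 10.6 and 10.3 CPM in homozygous faces and 7.29 and 4.40 CPM in wild-type faces, a log2 fold change of 0.84 (SE 0.25, 95% interval 0.25 to 1.44, adjusted p = 0.423). En1 in the same faces was at 3.38 and 3.29 CPM against 1.73 and 2.08 CPM, a log2 fold change of 0.79 (0.21 to 1.38, adjusted p = 0.456). Those 2 of 6 genes were past an unadjusted p of 0.05, against 8.65% of all tested genes, and 0.0723% of all were called. The wild-type faces of B6 held the 2 lowest Otx2 levels of the 16 faces, and the homozygous ones lay within the range of the other lines (7.34 to 14.4 CPM). With 1 library left out, Otx2 ran from 0.49 to 1.26, the highest being without wild-type replicate 1.

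In B5, Otx2 lay the other way, at 7.34 and 9.82 CPM in homozygous faces and 12.7 and 14.4 CPM in wild-type faces. The log2 fold change was -0.63 (SE 0.19, 95% interval -1.08 to -0.18, adjusted p = 0.999), the 1 value of 6 past an unadjusted p of 0.05, against 3.21% of all tested genes and 0% called. En1 was at 3.16 and 2.33 CPM against 0.600 and 2.71 CPM, with a log2 fold change of 0.73 (-0.63 to 2.08). With 1 library left out it ran from 0.06 to 2.21, the highest being without wild-type replicate 2. En2, not tested with all 4 libraries, was at 5.69 without homozygous replicate 2, a value that rests on A17.

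In B7, Emx2 was at 11.7 and 11 CPM in homozygous faces and 14.5 and 14.6 CPM in wild-type faces, a log2 fold change of -0.36 (SE 0.13, 95% interval -0.68 to -0.05, adjusted p = 0.595). It was the 1 of 6 genes past an unadjusted p of 0.05, against 7.55% of all tested genes, with 0.0329% called. These were the 2 lowest Emx2 levels of the 16 faces. In B3 none of the 6 genes was past an unadjusted p of 0.05, against 9.49% of all tested genes, with 0.0131% called, and the values ran from -0.89 for En1 to 0.32 for Otx1. Emx1, at 0.451 to 1.76 CPM over all 16 faces, had intervals that included 0 in all 4 lines, the value furthest from 0 being that of B6 (1.09, -0.06 to 2.24, adjusted p = 0.6).

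In the hearts, 1 test was possible, that of En1 in B5, at -0.49 (95% interval -4.80 to 3.82, adjusted p = 1), and 0% of all genes tested there were called, with 0.748% at an unadjusted p under 0.05. The 4 B5 hearts were at 1.43 CPM (A21) and 0.144 CPM for the homozygous and 0.0578 and 2.14 CPM for the wild-type libraries, so the highest was wild-type replicate 2 (A24). A24 also had the highest spinal Hox, gut and lung sums of the hearts, whose part in its En1 value was not tested. Fitted jointly over the 64 libraries, B5 heart gave calls for Otx2, Emx2 (4.87), Gbx2 (4.05) and Otx1 (3.79), with A21 higher than the other 3 hearts for each. In those 3 hearts Otx2 was at 0 CPM, so that its fitted fold change depends on the prior count and is not given, and Emx2 was at 0.19 to 0.287 CPM. No gene of the group was tested in the hearts of B2, B3, B6 or B7 or in the lungs.

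The genotype effect was compared between the 2 tissues of each of 5 lines by an interaction term. Of 25 tests edgeR called 0, with 6 at an unadjusted p under 0.05 and a smallest adjusted p of 0.53; over all tested genes 0.00622% were called and 4.25% had an unadjusted p under 0.05. In B4 the effect on Emx2 was 7.01 higher on the log2 scale in midbrain than in gut (95% interval 4.78 to 9.24, adjusted p = 0.543), with smaller values of 4.42 for Emx1 (0.46 to 8.37, adjusted p = 1) and -2.52 for En1 (-4.34 to -0.70, adjusted p = 1), all 3 at an unadjusted p under 0.05. With 1 library left out, the B4 value ran from 1.95 to 5.28 for Emx1 and from -3.45 to -1.82 for En1. In the B4 midbrains alone, the genotype effects without A39 were 0.30 for Emx2, 1.67 for Emx1 and -0.52 for En1. In B3, Emx2 was at -2.55 (adjusted p = 0.53). It rests on heart counts near 0, at 4 and 3 in homozygous and 1 and 0 in wild-type libraries. In B5, Emx2 was at -4.97 (-9.47 to -0.46, adjusted p = 1) and Otx2, which had no count in the other 3 hearts, also had an unadjusted p under 0.05. Without A21 Emx2 was at -0.62, and without the other homozygous heart, which leaves A21, it was at -5.92. Emx2 in B4 was at 7.56 without midbrain homozygous replicate 1, which leaves A39 as the only homozygous midbrain.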

How the data were processed

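RNA was sequenced from whole dissected tissues, and per the methods reads were mapped to mm10 with STAR and assigned to GENCODE M4 genes with RSEM. The submitters' processing notes name STAR, bcl2fastq, Juicer and mm10. The authors deposited 1 table per library with expected counts, which RSEM estimates and which need not be whole, and with TPM, scaled by length and to a fixed sum. Each table held 69690 entries, of which 43346 were Ensembl genes and the rest held at most 2.19e-05% of the counts. Names and positions came from GENCODE M21 (GRCm38), which named 42462 of them. The library kit and its strand are not given in the sources used here. Hi-C of adult liver was not analysed here.

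Expected counts were rounded and tested with edgeR 4.0.16 in R 4.3.3 (filterByExpr, TMM factors, glmQLFit and glmQLFTest), each comparison fitted alone, with Benjamini-Hochberg adjustment over all tested genes, calls at an adjusted p under 0.05 and 95% intervals from the same fit. All tests were two-sided. DESeq2 1.42.0, RLE factors, no filter, 1 joint fit of the 64 libraries, wild-type libraries alone, deposited TPM and leaving out each library were the alternatives. Totals of 8391553 to 31793441 expected counts limit precision for the low genes of heart, lung and gut. Scripts were tested on simulated data. The rule for named genes took the 7 members, their close relatives and overlapping transcripts, the 4 genes of most similar pattern for each member, and regional marker genes by level; a few of these are not reported here. Members and lists were chosen with earlier results of these data known. The heart, face, gut and lung marker lists, and library A17 with its isthmic genes, were chosen after the values had been seen.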

Additional observations from a re-analysis of the deposited data

Results flagged for a closer look

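Groups of 4 to 10 libraries in which the highest library held at least 10 counts were tested with Dixon's ratio. There were 4 combinations of gene and group in all, and 2 had a library outside the 95% limit. That count filter admits genes near 0 mainly through 1 high library, so no rate expected by chance can be set beside these 2. En1 in the homozygous hearts of B2 was at 5.06 CPM (108 counts) in replicate 4 (A58) and at 0.0539 to 0.324 CPM in the other 3, a Dixon ratio of 0.946 (n = 4). In A58 the facial mesenchyme gene Alx1 was at 13 CPM, the highest of the hearts other than A21, whose median was 0.889 CPM. Its part in the En1 value was not tested. Emx2 in the homozygous lungs of B2 was at 0.566 CPM in replicate 1, on 12 counts, with a Dixon ratio of 0.641 (n = 6).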

How the results depend on the processing

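No paired analysis was possible because the labels carry no replicate numbers: those used here were given in accession order and link no libraries, and in the lungs, whose codes share prefixes between genotypes, none of the 7 genes was tested. Of the genotype tests, 0 were called by edgeR, by DESeq2 and with RLE factors, 3 without a filter (2 in B4 gut, 1 in B6 face) and 6 in the joint fit (1 in B4 gut, 1 in B4 midbrain, 4 in B5 heart). Between tissues, 2 interactions were called without a filter, both in B4. With 1 library left out, genotype calls ranged from 0 to 4: 1 to 2 in B4 gut, 0 to 4 in B4 midbrain, 0 to 1 in B5 face, 0 to 4 in B5 heart and 0 to 1 in B6 face. Interaction calls then ranged from 0 to 5, with 0 to 1 in B4 and 0 to 5 in B5. With 1 library left out, the calls in B5 heart and in the B5 interaction came with A21 as the only homozygous heart. Those in B4 midbrain and in the B4 interaction came with A39 as the only homozygous midbrain. Those in B5 face came without homozygous replicate 2 (En2, with A17 left) or wild-type replicate 2 (En1). Where a left-out library leaves 1 library in a group, that library is assumed to vary like the others. The cause of these changes was not tested.

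Direction turned with 1 library left out for values near 0. The ranges were -0.05 to 0.22 for Otx2 in B3 face, -0.13 to 0.09 for Otx2 and -0.28 to 1.17 for Gbx2 in B4 midbrain, -0.31 to 0.01 for Emx2, -0.08 to 0.23 for Otx1 and -0.08 to 0.28 for Gbx2 in B5 face, and -2.90 to 3.61 for En1 in B5 heart. They were -0.21 to 0.18 for Emx2 and -0.12 to 0.50 for Gbx2 in B6 face, -0.01 to 0.51 for Otx1, -0.34 to 0.14 for Otx2, -0.06 to 1.70 for En1 and -0.16 to 0.15 for Gbx2 in B7 face. In B8 they were -0.38 to 0.30 for Emx1, -0.45 to 0.05 for Emx2, -0.49 to 0.07 for Otx1 and -0.48 to 0.29 for En1 in forebrain, and -0.12 to 0.23 for Emx2 and -0.11 to 0.39 for En1 in neural tube. Without a filter and in the joint fit Emx2 in B6 face was 0.00 and 0.01, and in the joint fit Gbx2 in B7 face was 0.01.

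Of tissue calls, Emx2 in midbrain over gut passed with DESeq2 (3.50, adjusted p = 0.0313) and without a filter (2.33, adjusted p = 0.0205), and En1 in midbrain over neural tube passed without a filter (0.59, adjusted p = 0.0417) and in wild-type libraries alone (1.18, adjusted p = 0.0013), as did Emx2 in wild-type libraries alone (-1.12, adjusted p = 0.00417). Over all genes the tools differed more: DESeq2 called 91 genes in B4 gut and 25 in B4 midbrain against 0 and 1 by edgeR, and no filter called 483 and 3. Genes under about 1 CPM, such as Emx1 in face, gave wide intervals at this depth.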
